A study of Mus musculus with 168 samples.

Results

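Ribosome biogenesis genes encode the proteins that transcribe, modify, cut and assemble ribosomal RNA in the nucleolus, and they were followed here across immune cells of mice given inhibitors of Janus kinases (JAKs). The list holds 32 genes that were looked up by symbol in the array annotation. Of these, 30 had a probe set of their own, out of 19752 genes with one; Noc2l and Npm3 had none. Where a gene had several probe sets, the one brightest on average was taken. Rrs1, an assembly factor of the large subunit, lay below the expression filter in every cell type, with 5.63 to 6.09 on the log2 scale at 4 h in NK cells. That left 29 genes tested in every cell type except granulocytes, where 14 passed.

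Ribosome production starts with RNA polymerase I, which transcribes the long precursor of ribosomal RNA. Small nucleolar ribonucleoproteins (snoRNPs) modify this precursor, the small subunit processome cuts out and folds the part for the 40S subunit, and another set of factors matures the 60S subunit. Myc is a known transcriptional activator of these genes, and in lymphocytes the pathway is known to be induced by cytokines and activation. JAKs carry the signal of many cytokine receptors to STAT transcription factors, among them STAT5, which acts downstream of the interleukins that maintain NK cells.

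The sequence shown here is the E-box CACGTG, the site that Myc binds with its partner Max, because Myc was itself measured on these arrays. Promoter windows of 300 bases, from 250 before to 50 after each RefSeq start (GRCm38.p6), were found for 28 of the 32 genes, in 32 windows, and not for Fbl, Bop1, Rrp12 and Rrs1. CACGTG was present in 8 of the 32 windows (25%) and in 7.15% of all 32851 windows in the RefSeq table. Each of these 8 is printed below 5′ to 3′ on the gene's strand, with the E-box in capitals and up to 12 bases on either side within the window.
Mybbp1a, chr11:72441355-72441376, plus strand: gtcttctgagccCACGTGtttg
Tsr1, chr11:74898092-74898121, plus strand: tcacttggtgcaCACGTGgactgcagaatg
Utp20, chr10:88826765-88826789, minus strand: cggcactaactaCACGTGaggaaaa
Utp18, chr11:93885769-93885798, minus strand: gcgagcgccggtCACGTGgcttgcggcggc
Wdr43, chr17:71616220-71616249, plus strand: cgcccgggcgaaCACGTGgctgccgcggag
Ltv1, chr10:13193092-13193121, minus strand: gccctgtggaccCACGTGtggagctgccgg
Nop2, chr6:125131811-125131840, plus strand: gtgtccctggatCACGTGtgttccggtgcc
Pes1, chr11:3963965-3963994, plus strand: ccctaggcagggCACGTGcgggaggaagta

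The first base of the E-box lay between position -60 (Nop2) and position 41 (Mybbp1a) relative to the start. Searched on both strands, TTCNNNGAA, the core of STAT sites, was in 2 windows (Nop58 and Polr1b; 6.25%) against 8.3% of all windows. CCGGAA, the core of ETS factor sites, was in 13 windows of 12 genes (40.6%) against 14.9%. A match describes the letters of the window and is no evidence of binding.

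The series comprises 168 arrays (Affymetrix Mouse Gene 1.0 ST) of cells sorted from 80 male C57BL/6 mice at 6 weeks of age, each dosed by gavage with an inhibitor or with vehicle. The inhibitors are known only by their codes (SB00513404, SB00526221, SB00526222, SB00526226 and SB00526228), and the labels give no dose. Spleen gave natural killer (NK) cells (NK1.1+, 27 arrays), CD4+ T cells (39), cells labelled MF (F4/80+, 33), dendritic cells (DC, FLT3+, 20) and granulocytes (GN, Ly6G+, 16), and the peritoneal cavity gave macrophages (F4/80+ in 9 arrays and F4/80+ ICAM2+ in 24). Prolonged dosing meant 14 or 15 treatments, and 28 in 2 of the 4 CD4+ T cell arrays of SB00513404, with tissue taken 14 to 18 h after the last one. The short schedule meant 3 treatments with tissue taken 4 h after the last, all within 1 experiment (J2). The vehicle, 0.5% MC, was given on the prolonged schedule only, apart from single doses. Number of treatments and hours since the last therefore changed together, and no vehicle was taken at 4 h, so their parts cannot be told apart. Mice given vehicle at pH 3 formed a separate group.

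All values are log2 of the deposited intensity. Samples of 1 group are separate arrays. The experiment and number in each title were read as the animal, and within a cell type each animal gave 1 array. The p-values measure the spread between these arrays. NK arrays carried Ncr1, a receptor of NK cells, at 13.1 to 13.6, against at most 7.44 in the other cells. The arrays labelled spleen MF did not carry the markers of red pulp macrophages: Vcam1 had a median of 6.01 and Spic of 5.15, below the 8.005 and 8.01 in DC. Their median of Gata6, which defines resident peritoneal macrophages, was 11.2, as in the peritoneal arrays; they are called here the arrays labelled spleen MF. CD4+ T cell arrays all carried Cd3e at 12.06 to 12.86, but some also carried markers of other cells. The NK marker Klrb1c reached 10.59 (median 5.87), Ly6g reached 10.17 (median 5.90) and Flt3 reached 9.46 (median 6.24). Of the 168 arrays, 16 stood apart from their cell type, 3 of them in NK cells and 5 in CD4+ T cells. Those of both cell types all came from J8. The NK arrays were SB00526221 prolonged replicates 5 and 6 and SB00526226 prolonged replicate 4. In bulk samples fewer cells of a type and less RNA per cell cannot be told apart.

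One array went against its label. The array labelled SB00526228 prolonged replicate 3 in NK cells had 8.713 for Myc, 9.92 for Bcl2, a survival gene and known STAT5 target, and 7.96 for Srm, a polyamine synthesis gene and known Myc target. All 3 values lay within the 4 h range, whereas Bcl2 was at least 10.82 and Srm at least 8.75 in every other prolonged and vehicle array of NK cells. It was no member of the groups compared in the contrast of 4 h with prolonged, but it entered the fitted spread and experiment terms, and values without it are given where it enters.

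In NK cells the ribosome biogenesis genes were lower 4 h after the third treatment than after prolonged dosing with the same 3 compounds (SB00526221, SB00526222 and SB00526226). Averaged over the 30 genes with a probe set, the level was 7.83, 7.92, 7.96, 7.98 and 8.08 in the 5 arrays at 4 h. It was 8.23 to 8.76, with a median of 8.52, in the 16 prolonged arrays, and 8.32, 8.37 and 8.39 in the 3 vehicle arrays. All 5 arrays at 4 h were thus below every vehicle array and every prolonged array of these compounds. The fitted difference from prolonged, averaged over the 29 tested genes, was -0.56 (SE 0.12). Limma, with experiment as a term and Benjamini-Hochberg adjustment over 10957 genes, called 14 of the 29 lower and 0 higher at an adjusted p of 0.05, and 28 of 29 differences were below zero. Among all genes tested 0.986% were called lower. The median difference was -0.62 over the 29 genes and 0.0055 over all genes. The groups did not overlap, with every 4 h array lower, for 10 of the 29 genes, against 1.36% of all genes.

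**Figure D1:**
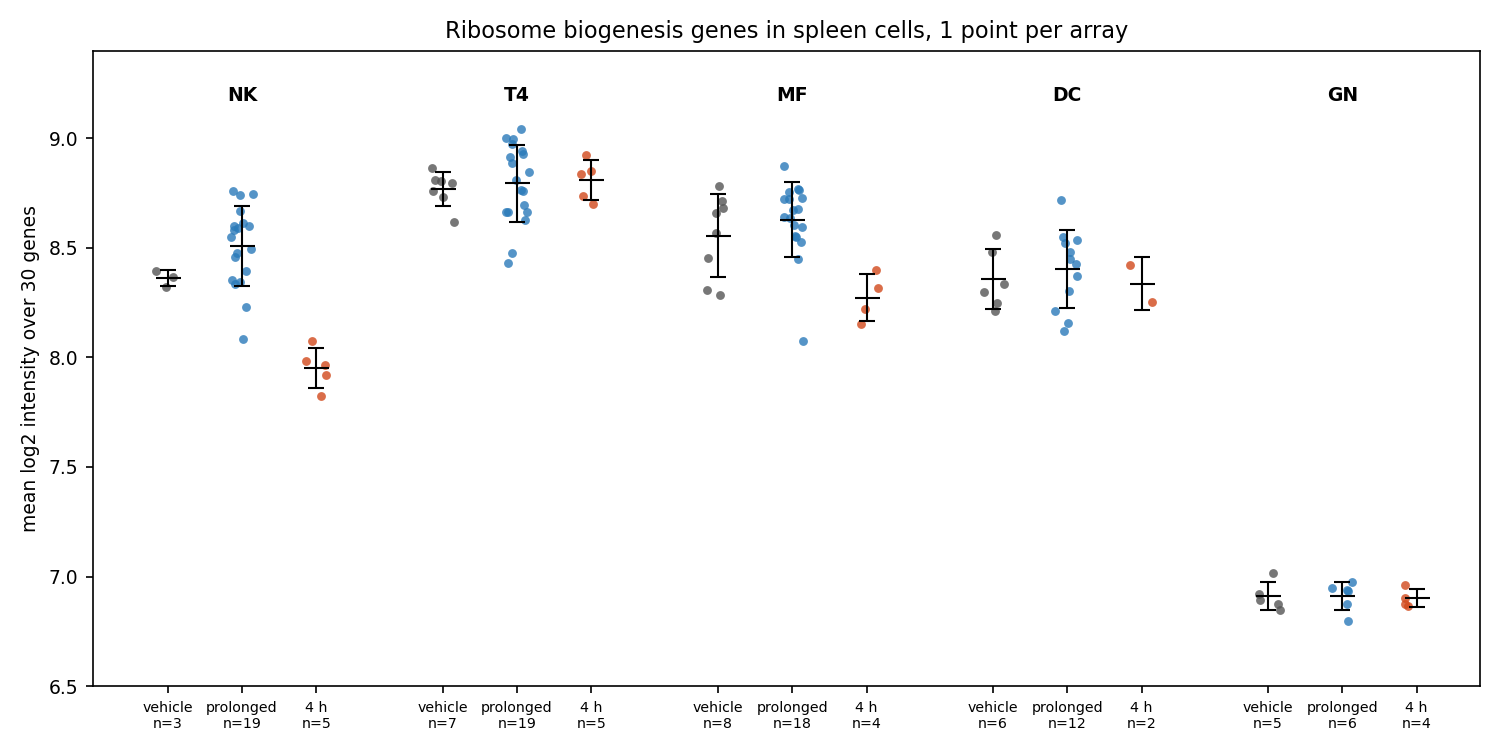
Mean log2 intensity over the 30 ribosome biogenesis genes with a probe set, 1 point per array, by spleen cell type (T4 are the CD4+ T cells) and by vehicle, prolonged dosing and 4 h; black bars give the mean and SD. The 5 NK arrays at 4 h lie at 7.83 to 8.08, below the 3 vehicle arrays at 8.32 to 8.39, whereas the 4 h arrays of CD4+ T cells average 8.81 beside vehicle at 8.77.

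Among the nucleolar scaffold and chaperone proteins, 3 of 4 fell, with a median of -0.62. Mybbp1a, a nucleolar protein that binds Myb and acts in ribosomal RNA processing, moved most of all 29 genes. It was at 7.39, 7.52, 7.83, 7.94 and 8.03 at 4 h, at 8.45, 8.54 and 8.58 with vehicle, and at 8.58 to 9.02 (median 8.81) after prolonged dosing. No 4 h array reached the lowest vehicle or prolonged array. It fell 2.07-fold (log2 difference -1.05, SE 0.17, limma adjusted p = 0.00207, n = 5 and 16). Ddx21, an RNA helicase that couples polymerase I transcription to processing, was at 9.04 to 9.34 at 4 h and at 9.11 to 10.17 (median 9.85) after prolonged dosing; it fell by 0.66 (SE 0.16). Nolc1, a chaperone of snoRNPs, was at 8.31 to 8.55 at 4 h and at 8.29 to 9.07 (median 8.83) after prolonged dosing; it fell by 0.57 (SE 0.13). For both genes the prolonged groups overlapped the 4 h arrays at their low end. The prolonged arrays of J2 alone were at 9.58 to 10.13 for Ddx21 and at 8.85 to 9.07 for Nolc1. Ncl, nucleolin, was not called, with -0.19 (SE 0.20).

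Of the 4 RNA polymerase I subunits, 2 fell. Polr1b, the second largest subunit, was at 7.69, 7.96, 8.09, 8.14 and 8.44 at 4 h, at 8.44, 8.684 and 8.87 with vehicle, and at 8.43 to 9.21 (median 8.84) after prolonged dosing. The highest 4 h array lay at the low end of the prolonged range, and the remaining 4 lay below both other groups. Polr1b fell 1.94-fold (-0.96, SE 0.19, limma adjusted p = 0.00824, n = 5 and 16). Polr1a, the largest subunit, was at 7.89 to 8.18 at 4 h, at 8.43 to 8.50 with vehicle and at 8.02 to 8.691 (median 8.47) after prolonged dosing, and fell by 0.52 (SE 0.13). Polr1e had a difference of -0.19 (SE 0.13). Polr1c, a subunit that RNA polymerase III also contains, differed between experiments: vehicle was at 8.20 and 8.38 in J2 and at 9.603 in J6. Its raw means were 8.633 at 4 h and 9.18 after prolonged dosing, while the fit with experiment as a term gave 0.02 (SE 0.14), and without that term -0.54. Its direction cannot be given.

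Of the 4 snoRNP core proteins, 2 fell, with a median of -0.65. Dkc1, the pseudouridine synthase dyskerin, was at 7.98 to 8.641 at 4 h, at 8.59, 9.18 and 9.26 with vehicle, and at 7.63 to 9.56 (median 8.95) after prolonged dosing. Its groups overlapped, the low prolonged value being SB00526221 replicate 6, a J8 array that stood apart. Prolonged arrays of J2 alone were at 8.96 to 9.56. Dkc1 fell by 0.93 (SE 0.24, limma adjusted p = 0.0491, n = 5 and 16). Fbl, the methyltransferase fibrillarin, was at 8.14 to 8.694 at 4 h, 8.51 to 9.02 with vehicle and 8.50 to 9.54 (median 9.01) after prolonged dosing. It fell by 0.67 (SE 0.16), but with the mean of its 2 probe sets it was -0.41 (adjusted p = 0.152) and was not called. Nop56 and Nop58, the paired scaffold proteins of the same particle, had differences of -0.41 and -0.64 (adjusted p = 0.143 and 0.139) and were not called.

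The small subunit group had the most genes called, 6 of 10, with a median of -0.70. Tsr1, a late 40S maturation factor, was at 6.81, 7.18, 7.25, 7.28 and 7.31 at 4 h, at 7.60, 7.72 and 7.77 with vehicle, and at 7.40 to 8.35 (median 7.92) after prolonged dosing. The groups did not overlap, and Tsr1 fell 1.84-fold (-0.88, SE 0.16, limma adjusted p = 0.00495, n = 5 and 16). Utp20, a large scaffold of pre-ribosomes, was at 7.02 to 7.65 at 4 h, 7.88 to 8.20 with vehicle and 7.66 to 8.49 (median 7.98) after prolonged dosing. It also did not overlap and fell by 0.79 (SE 0.17). Wdr75, a processome subunit, was at 7.83 to 8.19 at 4 h, 8.662 to 9.02 with vehicle and 8.12 to 9.31 (median 8.92) after prolonged dosing, and fell by 0.81 (SE 0.17). Wdr43, a processome subunit of the same subcomplex, was at 8.59 to 9.10 at 4 h, at 9.28 to 9.79 with vehicle and at 8.75 to 9.92 (median 9.48) after prolonged dosing. The 4 h arrays of both subunits lay below vehicle and overlapped the low end of the prolonged range. Heatr1, required for polymerase I transcription, was at 8.15 to 8.649 at 4 h, at 8.709 to 9.13 with vehicle and at 8.618 to 9.35 (median 8.89) after prolonged dosing. Ltv1, an export and assembly factor of the 40S subunit, was at 6.93 to 7.54 at 4 h, at 8.03 to 8.43 with vehicle and at 7.445 to 8.48 (median 8.05) after prolonged dosing. Again the 4 h arrays were below vehicle, with a narrow overlap with prolonged dosing. Within J2 the lowest prolonged array was at 8.78 for Heatr1 and at 7.82 for Ltv1. Against prolonged dosing Wdr43 fell by 0.75 (SE 0.19), Heatr1 by 0.65 (SE 0.14) and Ltv1 by 0.76 (SE 0.20, adjusted p = 0.0498). Utp18, Rrp12, Rrp9 and Nop14 had differences of -0.62, -0.42, -0.35 and -0.20 and were not called.

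Of the 7 tested factors of the 60S subunit, 1 fell, and the median was -0.35. Rrp1b, a nucleolar 60S assembly factor, was at 6.89, 7.06, 7.13, 7.14 and 7.27 at 4 h, at 7.54, 7.58 and 7.69 with vehicle, and at 7.49 to 8.09 (median 7.78) after prolonged dosing. All 4 h arrays lay below all others of these groups. It fell by 0.78 (SE 0.15, limma adjusted p = 0.0061, n = 5 and 16). Gnl3, the GTPase nucleostemin, was at 6.84 to 7.38 at 4 h, 7.86 to 7.98 with vehicle and 7.09 to 8.85 (median 8.14) after prolonged dosing, with a difference of -0.75 (SE 0.22, adjusted p = 0.0879). The other 5 of this group include the Pes1, Bop1 and Wdr12 complex and the ribosomal RNA methyltransferase gene Nop2. They ranged from -0.55 (Nop16) to -0.23 (Wdr12), and none was called. Wdr12 had 2 probe sets. Within J2 the raw mean difference was -0.25 for the brighter set used here and -0.51 for the other. Of the 14 genes called, 13 had a promoter window (Fbl had none), and 5 of these (Mybbp1a, Tsr1, Utp20, Wdr43 and Ltv1) had the E-box printed above. Of the 15 tested genes not called, 13 had a window, and 3 of these (Utp18, Nop2 and Pes1) had it.

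**Figure D2:**
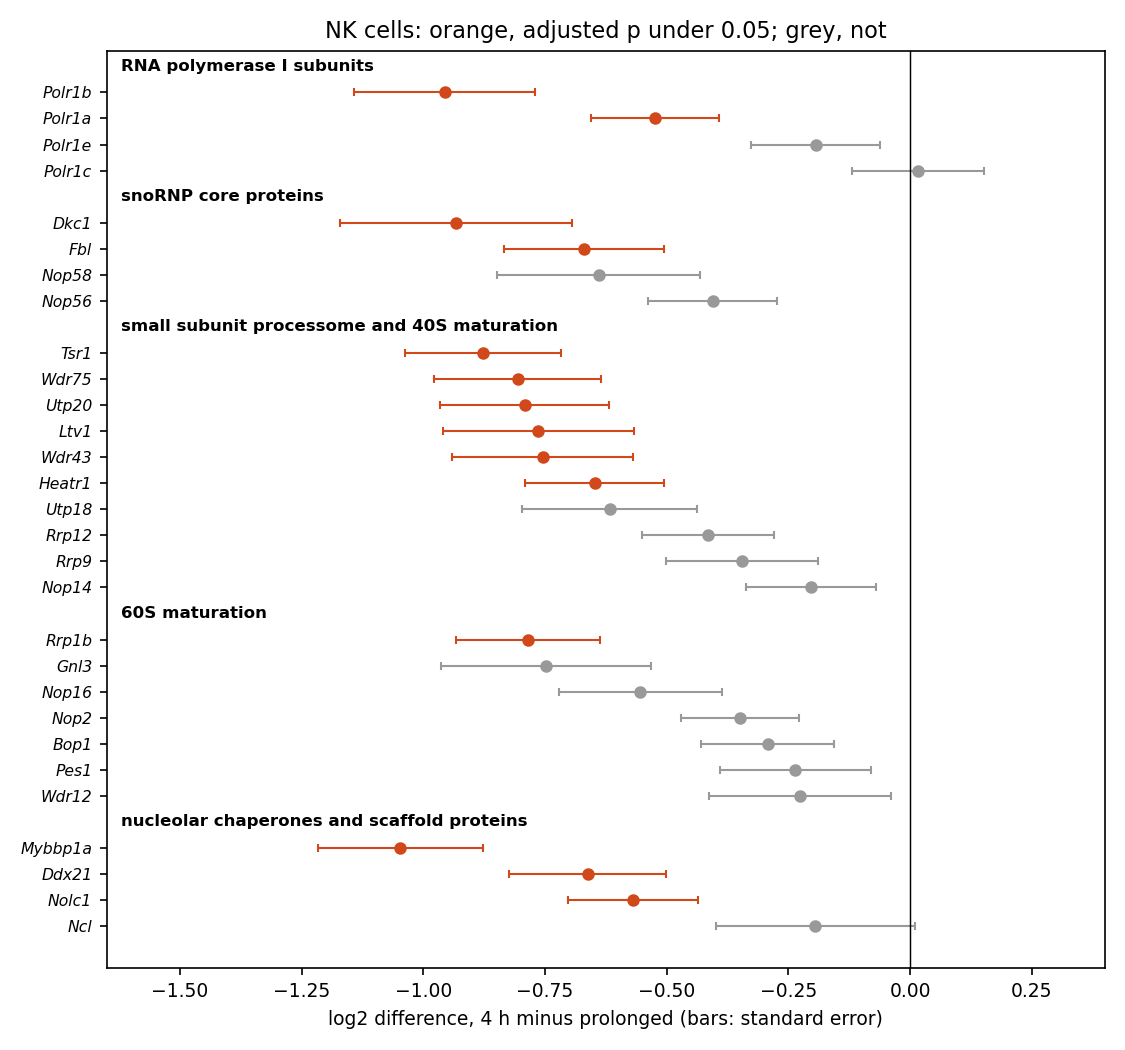
Fitted log2 differences of the 29 tested genes in NK cells, 4 h minus prolonged dosing with the same compounds, as points with bars of 1 standard error, grouped by role; genes called at an adjusted p of 0.05 are marked. Differences run from -1.05 for Mybbp1a to 0.02 for Polr1c, and 28 of 29 lie below zero.

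**Figure D3:**
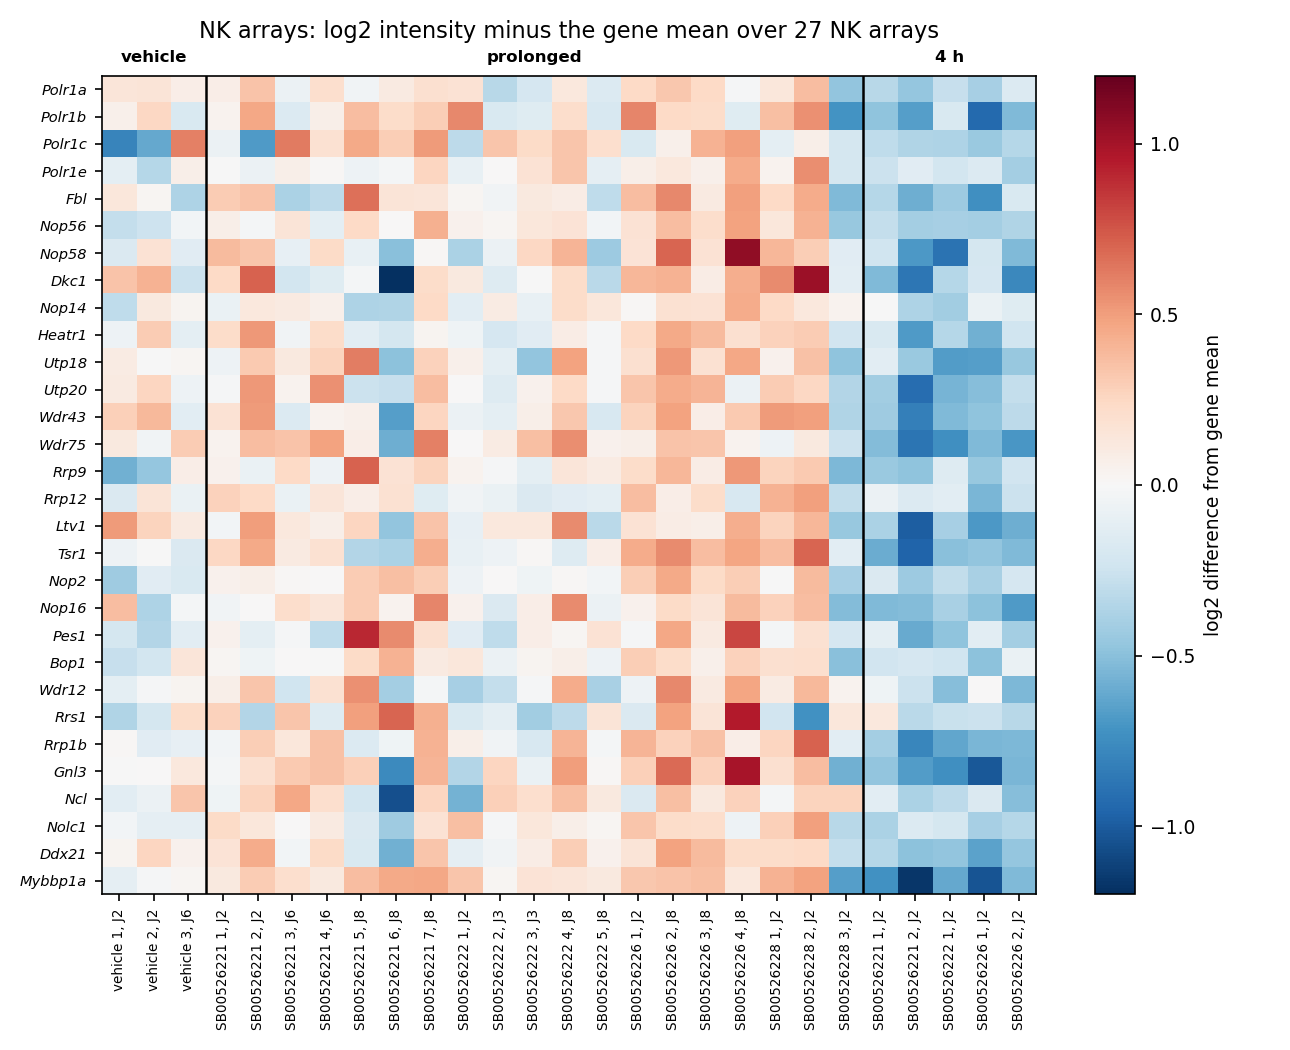
Level of each gene in each NK array as the log2 difference from that gene's mean over all 27 NK arrays, with 1 column per array (compound, replicate and experiment). The 5 columns at 4 h are below the mean for most genes, and the array labelled SB00526228 prolonged replicate 3 is low beside the other prolonged arrays.

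The number of genes called depended on single arrays, while the size of the difference did so less. Leaving out 1 NK array at a time gave 4 to 18 genes called and a mean difference of -0.60 to -0.52. For SB00526221 the count was 4, 7 and 8 without prolonged replicates 2, 1 and 4, and 7 and 5 without replicates 1 and 2 at 4 h. It was 7 without SB00526222 prolonged replicate 1, 6 and 9 without SB00526226 prolonged replicates 1 and 3, and 6 and 8 without SB00526226 replicates 1 and 2 at 4 h. It was 9 and 8 without vehicle replicates 1 and 3, and 18 without the array labelled SB00526228 prolonged replicate 3. In the settings listed here with 4 to 9 genes called, 45 to 97 of all 10957 genes were called lower, against 108 with all arrays. With 18 called, 244 of all genes were called in either direction. Within J2 alone, the only experiment with both schedules, 5 arrays at 4 h were set against 4 prolonged arrays. The mean difference there was -0.57 (SE 0.15), and 5 genes were called (54 of all 10957 genes were called lower).

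Markers of red pulp macrophages moved along with this result. Their mean per array was 6.77, 6.77, 7.22, 7.55 and 7.61 at 4 h, 6.38 to 6.86 with vehicle and 6.38 to 8.11 (median 6.605) in the 16 prolonged arrays. All 5 tested markers (Vcam1, Slc40a1, Hmox1, C1qa and C1qb) were above zero, with a median of 0.79, and 0 of 5 were called. Other marker lists were also looked at. The macrophage markers Csf1r (0.61) and Cd68 (0.46) were above zero and not called. Of the plasma cell markers, Prdm1 was called higher (0.60, limma adjusted p = 0.00495), and Xbp1 was at -0.54 (adjusted p = 0.0513). No tested marker of CD4+ T cells, DC, granulocytes, B cells or erythroid cells was called. For each of granulocytes, B cells and erythroid cells only 1 marker was tested. That of B cells, Cd79b, differed by -0.36 (limma adjusted p = 0.136). It was at 7.04 to 7.53 at 4 h and at 7.56 to 8.34 after prolonged dosing. Of 4 CD4+ T cell markers 1 was above zero (median -0.33), and of 6 DC markers 2 were (median -0.02). NK markers were between 11.82 and 12.301 in every NK array. Without the 6 arrays whose red pulp mean exceeded 7, which left 2 arrays at 4 h, the mean difference of the ribosome biogenesis genes was -0.45 (SE 0.16) and 0 were called (4 of all 10957 genes were called lower). With the red pulp mean as a covariate it was -0.47 (SE 0.14) and 1 gene, Mybbp1a, was called (-1.05, adjusted p = 0.034), with 13 of all genes called lower.

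Against vehicle, the difference at 4 h had the same direction, but no gene passed the test. The mean difference was -0.42 (SE 0.14), 27 of 29 genes were below zero, and the median was -0.49. Limma called 0 of 29 at an adjusted p of 0.05 (0.0821% of all genes were called lower), and 16 had an unadjusted p under 0.05. The groups did not overlap for 17 of the 29, against 6.4% of all genes. Ltv1 had the largest difference (-0.95, adjusted p = 0.122), followed by Dkc1 (-0.88), Mybbp1a (-0.80) and Wdr43 (-0.80). Leaving out 1 array gave 0 to 4 genes called, with 3 called without the array labelled SB00526228 prolonged replicate 3 (38 of all genes were called lower) and 4 without SB00526221 prolonged replicate 6 (48 of all genes). These contrasts share the 4 h arrays with those above.

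After prolonged dosing, no gene differed from vehicle beyond the test's threshold. The 19 prolonged NK arrays had mean levels of 8.09 to 8.76 (median 8.55), which spanned the 3 vehicle arrays. The fitted difference was 0.14 (SE 0.12, 95% interval -0.12 to 0.40), and 0.16 (SE 0.09) without the array labelled SB00526228 prolonged replicate 3. Limma called 0 of 29 (0% of all genes were called lower), 3 had an unadjusted p under 0.05, and 2 of 29 were below zero.

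**Figure D4:**
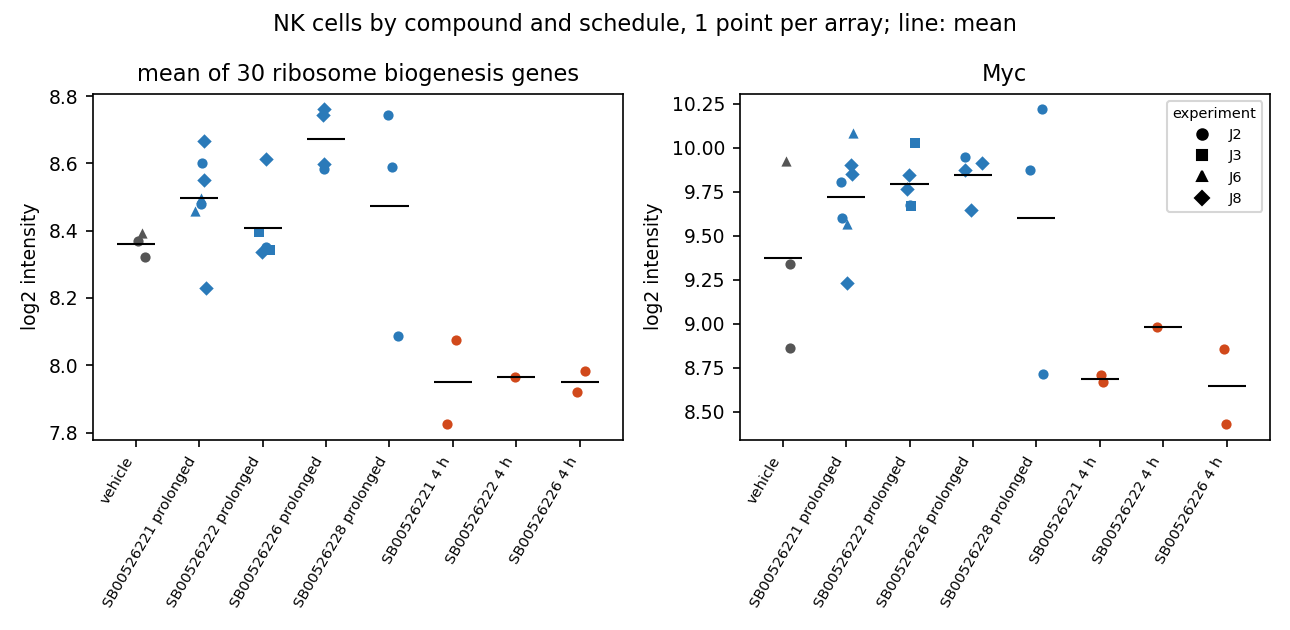
Left, mean log2 intensity of the 30 genes and, right, log2 intensity of Myc in each NK array, by compound and schedule, with 1 point per array (its shape gives the experiment) and a line at the group mean. The means at 4 h are 7.95, 7.96 and 7.95 for SB00526221, SB00526222 and SB00526226, and the prolonged means run from 8.41 to 8.672.

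No gene was called between the 3 compounds given on both schedules in NK cells. At 4 h the mean level was 7.95 for SB00526221 (n = 2), 7.96 for SB00526222 (n = 1) and 7.95 for SB00526226 (n = 2). After prolonged dosing it was 8.50 (n = 7), 8.41 (n = 5) and 8.672 (n = 4), and 8.47 for SB00526228 (n = 3), or 8.667 (n = 2) without the array that went against its label. The difference between 4 h and prolonged was -0.54 (95% interval -0.88 to -0.20) for SB00526221, with 2 genes called lower, Mybbp1a (-1.23) and Tsr1 (-0.99), against 0.274% of all genes. It was -0.46 (-0.93 to 0.005) for SB00526222 with 0 called (0% of all genes) and -0.70 (-1.08 to -0.33) for SB00526226 with 0 called (0.0456%). Of 9 pairs of compounds compared at the same schedule, none had a gene called by limma (0.00406% of all gene tests were called), and 7 of 261 tests had an unadjusted p under 0.05. The mean differences between compounds ran from -0.16 to 0.23. Without the array labelled SB00526228 prolonged replicate 3, they ran from -0.06 to 0.27, 0 genes were called in the 9 pairs, and 14 tests had an unadjusted p under 0.05. Between 4 h and prolonged, 6 genes were then called for SB00526221 (117 of all 10957 genes) and 4 for SB00526226 (44 of all genes). After prolonged dosing SB00526226 was above SB00526222 by 0.23, with a 95% interval of -0.06 to 0.52 with all arrays. Without that array the interval was 0.01 to 0.44, and it was the only pair whose interval left out zero. At 4 h the interval for SB00526222 against SB00526221 was -0.45 to 0.49, and a p that misses the threshold does not show that compounds act alike.

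Single compounds were also set against vehicle after prolonged dosing in all 5 spleen cell types. Over these 20 contrasts limma called 0 ribosome biogenesis genes (0.106% of all gene tests were called), 31 of 535 tests had an unadjusted p under 0.05, and the mean difference ran from -0.32 to 0.35. Both ends were SB00526228 contrasts with 1 array, -0.32 in CD4+ T cells and 0.35 in the arrays labelled spleen MF. The CD4+ T cell array came from the same animal as the NK array that went against its label. For SB00526228 in NK cells the mean difference was 0.12 (SE 0.15), and 0.33 (SE 0.12) with 0 genes called without that NK array. For SB00526226 in NK cells it was 0.29 (95% interval -0.05 to 0.62), with an interval of 0.04 to 0.54 without that NK array. No NK array had the pH 3 vehicle, and most SB00526226 prolonged NK arrays came from J8, which held no NK vehicle array. In 4 contrasts with the pH 3 vehicle 0 genes were called (0% of all gene tests), 4 of 116 tests had an unadjusted p under 0.05, and the means ran from -0.04 to 0.07.

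In CD4+ T cells no gene passed the test on any schedule, and raw and fitted values differed. The mean over the genes was 8.81 ± 0.09 (SD, n = 5) at 4 h, 8.77 ± 0.08 (n = 7) with vehicle and 8.79 ± 0.18 (n = 19) after prolonged dosing. The fitted difference between 4 h and prolonged was -0.15 (SE 0.08), with 25 of 29 genes below zero, but it was 0.05 without the experiment term. Limma called 0 of 29 (0.0357% of all genes were called), and 5 had an unadjusted p under 0.05, of which Dkc1 (-0.50, adjusted p = 0.655) was the largest. Against vehicle the fitted difference at 4 h was -0.14 (SE 0.10), with 26 of 29 below zero, and 0.05 without the experiment term; 0 were called (0.00892% of all genes; 2 with an unadjusted p under 0.05) and 0 were called after prolonged dosing (0% of all genes and 0 such genes). Single doses gave 8.83 against 8.81 for vehicle at 3 h, with 1 array each, and 8.89 at 18 h (n = 3).

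The arrays labelled spleen MF were lower at 4 h than after prolonged dosing for most of the genes, none of which passed the test. The mean was 8.27 ± 0.11 (SD, n = 4) at 4 h, 8.56 ± 0.19 (n = 8) with vehicle and 8.629 ± 0.173 (n = 18) after prolonged dosing. The fitted difference between 4 h and prolonged was -0.22 (SE 0.11), 26 of 29 genes were below zero, 0 were called (0.136% of all genes were) and 11 had an unadjusted p under 0.05. Polr1b (-0.44, adjusted p = 0.078) and Nop16 (-0.48, adjusted p = 0.117) were among the largest. Without SB00526222 prolonged replicate 5, 1 gene was called (25 of all 11008 genes were called lower), and without the experiment term 6 were (200 of all genes). Against vehicle 0 were called at 4 h (0.0182% of all genes; 6 with an unadjusted p under 0.05) and after prolonged dosing (0.00908%; 3).

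In dendritic cells and granulocytes the groups overlapped. In DC the means were 8.34 at 4 h (n = 2), 8.36 with vehicle (n = 6) and 8.40 after prolonged dosing (n = 12). In GN the 30 genes, most of them below the filter, averaged 6.90 (n = 4), 6.91 (n = 5) and 6.91 (n = 6). The fitted differences between 4 h and prolonged were -0.07 (SE 0.18) in DC and -0.12 (SE 0.11) in GN, and limma called 0 members in either (0% of all genes in both, and 0 members with an unadjusted p under 0.05). Against vehicle 0 were called at 4 h (0% of all genes in DC and 0.0455% in GN; 1 and 0 with an unadjusted p under 0.05) and after prolonged dosing (0% and 0.0273%; 0 in both). In GN the sign of the 4 h differences turned without the experiment term (0.02 against prolonged, 0.03 against vehicle), so no direction is given.

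**Figure D5:**
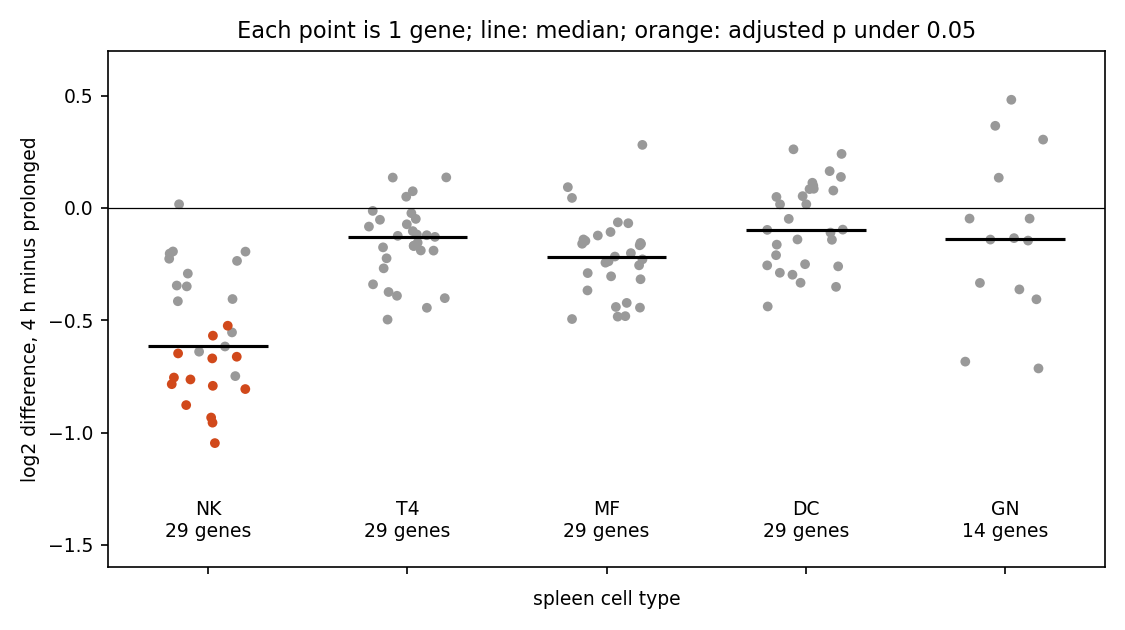
Fitted log2 difference, 4 h minus prolonged dosing, of each tested ribosome biogenesis gene in the 5 spleen cell types, 1 point per gene and a line at the median (orange, adjusted p under 0.05). The NK median is -0.62, against -0.13 in CD4+ T cells and -0.22 in the arrays labelled spleen MF.

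Whether the difference between schedules itself differed between NK cells and another cell type was tested in 1 fit with the animal as a block (correlation 0.046). Against CD4+ T cells, Mybbp1a was called lower (-0.92, SE 0.21, limma adjusted p = 0.0316), 1 of 29 genes, with 0.0914% of all genes called. Over the 29 genes the mean of this double difference was -0.40 (SE 0.14), 28 were below zero, and 11 had an unadjusted p under 0.05. Against the arrays labelled spleen MF the mean was -0.33 (SE 0.14) with 0 genes called (0.19% of all genes), Mybbp1a being at -0.80 (adjusted p = 0.07). Against DC it was -0.49 (SE 0.18) with 0 called (0%) and Mybbp1a at -1.29 (adjusted p = 0.0502). Against GN it was -0.32 (SE 0.23) over the 14 genes that passed the filter in both cell types, with 0 called (0.0685%) and Mybbp1a at -1.52 (adjusted p = 0.0578). Without the array labelled SB00526228 prolonged replicate 3, Mybbp1a was called in each of these 4 comparisons (adjusted p = 0.0073 against CD4+ T cells, 0.0255 against the arrays labelled spleen MF, 0.0061 against DC and 0.0141 against GN), and no other ribosome biogenesis gene was. Of all 13130 genes, 34, 5 and 11 were then called lower against the arrays labelled spleen MF, DC and GN. That array is on neither side of the comparison. Against CD4+ T cells the Mybbp1a difference stayed at -0.92 while its SE went from 0.21 to 0.19. The array was picked after its values were seen, so these calls add no independent evidence. By itself Mybbp1a differed between the schedules by -0.13 (SE 0.13) in CD4+ T cells, -0.24 (SE 0.14) in the arrays labelled spleen MF, 0.24 (SE 0.24) in DC and 0.48 (SE 0.28) in GN.

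With vehicle, NK cells had less of these transcripts than CD4+ T cells. All 29 genes were below zero (mean -0.43, SE 0.11), and 11 were called lower, against 7.1% of all genes. The CD4+ T cell vehicle replicates 6 and 7 were among the arrays that stood apart. The genes called lower were led by Tsr1 (-0.89, SE 0.20, limma adjusted p = 0.00199). Rrp1b (-0.72), Polr1a (-0.74) and Wdr12 (-0.79, from 1 of its 2 probe sets) were among them. Against the arrays labelled spleen MF 9 of 29 were lower, but so were 19.4% of all genes; Nop16 (-1.10) and Polr1a (-0.79) differed most. Against DC 2 were lower, Nop16 (-0.96) and Fbl (-0.46), with 14.6% of all genes lower, and Polr1b was higher (0.45). In GN 15 of the 29 were below the filter, so only levels are given there.

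In peritoneal macrophages most of the genes had differences below zero with inhibitor on each schedule, and none was called. Up to 6 h after a single dose, the mean level was 8.545 ± 0.127 (SD, n = 12) against 8.625 ± 0.135 (n = 6) with vehicle. The fitted difference was -0.11 (SE 0.06), 26 of 29 genes were below zero, 6 had an unadjusted p under 0.05 and 0 were called (0.0644% of all genes were). Dkc1 (-0.37, adjusted p = 0.552) and Wdr43 (-0.22, adjusted p = 0.637) were the lowest in p. From 18 to 28 h after a single dose it was -0.17 (SE 0.08) with 29 of 29 below zero, where 68.8% of all genes were below zero, from 8 arrays and 3 vehicle arrays, of which 1 was of that schedule; 0 were called (0% of all genes) and 1 had an unadjusted p under 0.05. After 14 treatments it was -0.11 (SE 0.10), with 23 of 29 below zero, 0 called (0%) and 2 with an unadjusted p under 0.05.

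Among the other genes of the pathway in NK cells, each list had a median below zero, and at most 3 genes of a list were called. Of all genes 0.986% were called lower, and each list with any gene called had a larger share than that. Of 17 further genes of RNA polymerase I and its factors, 0 were called between 4 h and prolonged dosing (median -0.11). Of 17 further snoRNP and modification genes 1 fell (median -0.24), the RNA acetyltransferase gene Nat10 (-0.72). Of 44 further small subunit genes 3 fell (median -0.23), Rcl1 (-0.88), Bysl (-0.77) and Utp15 (-0.48). Of 51 further 60S genes 3 fell (median -0.27), Urb2 (-1.02), Mdn1 (-0.83) and Rpf2 (-0.66). Of the 13 RNA exosome genes 0 were called (median -0.21).

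Of the cytosolic and mitochondrial proteins of the ribosome itself, few or none were called, beside 0.986% of all genes called lower. Translation factors and nucleotide synthesis genes had larger shares called. Of 56 cytosolic ribosomal protein genes 0 were called, 28 were below zero and the median was 0.0013. Of 76 mitochondrial ribosomal protein genes 1 fell, Mrps18b (-0.93; median -0.14), a share near that of all genes. Of 41 translation factors 3 fell, the helicase gene Eif4a1 (-0.58), Eef1e1 (-0.84) and Eif2b3 (-0.66), with a median of -0.08. Of 17 genes of nucleotide synthesis 3 fell, the purine synthesis genes Atic (-0.85) and Gart (-0.65) and the nucleoside diphosphate kinase gene Nme1 (-0.76), with all 17 below zero. Of 19 cell division genes 0 were called (median -0.19).

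Myc and its antagonists Mxi1 and Mxd4 moved in opposite directions in the same NK arrays. Myc was at 8.43, 8.666, 8.706, 8.86 and 8.98 at 4 h, at 8.86, 9.34 and 9.92 with vehicle and at 9.23 to 10.08 (median 9.83) in the 16 prolonged arrays. No 4 h array reached the prolonged range, while 1 vehicle array lay within the 4 h range. Myc fell by 0.96 (SE 0.22, limma adjusted p = 0.0227, n = 5 and 16). Mxi1 and Mxd4, which compete with Myc for Max, rose by 0.52 and 0.66 in the fit (limma adjusted p = 0.0212 and 0.0301). Their groups overlapped. Mxi1 was at 7.39 to 7.70 at 4 h (mean 7.55) and at 6.69 to 7.47 after prolonged dosing (mean 7.23). Mxd4 was at 9.93 to 10.39 (mean 10.14) and at 9.30 to 10.32 (mean 9.81). The other 9 of 12 Myc network genes were not called. Of 18 known STAT5 targets 5 fell, among them Bcl2 (-1.55), the feedback inhibitor gene Socs2 (-1.34) and the granzyme gene Gzmb (-0.82), with a median of -0.40 and 0.986% of all genes called lower.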

How the data were processed

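Deposited values were probe-set intensities on a linear scale, which the authors made with RMA in Affymetrix Power Tools, per the submitters' processing notes; the version is not given in the sources used here. RMA had already put the arrays on 1 distribution (medians 119.5 to 142.3), and its summarisation compresses differences of dim probe sets. From these, log2 of the intensity was taken with no pseudocount, and genes above their array's median in at least 3 arrays of a cell type were kept. Each tissue and cell type was fitted with limma 3.58.1 in R 4.3.3, with group and experiment as terms, and p-values were adjusted by Benjamini-Hochberg over all genes tested (threshold 0.05). NK cells were compared with other cells with the animal as a random block. The number of arrays limits the precision. No 2 arrays were identical. Members and lists were chosen with earlier results of these data known, so no list's direction is independent evidence. All members are described; other genes are named where called on those lists, by the size of their change. Alternatives were other normalization, filter, weights, experiment terms, probe sets and left-out arrays, among them those standing apart (median correlation with their cell type more than 3 MAD below its median); the settings for red pulp markers, for 17 h arrays, and for single compounds and cell type differences without SB00526228 replicate 3 were chosen after seeing the data. The NK fit was also run on simulated data that held no differences between experiments, so that run did not test the experiment term.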

Additional observations from a re-analysis of the deposited data

Results flagged for a closer look

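Of 23 groups of 4 to 10 arrays, 2 held an array far from the rest in the mean over the ribosome biogenesis genes; chance flags about 1 in 20 groups. In NK cells, SB00526222 prolonged replicate 4 was at 8.6145, against 8.34 to 8.40 in the other 4 arrays of its group. In peritoneal macrophages, 1 of the 6 vehicle arrays of the early single-dose schedule, replicate 3, was at 8.89, against 8.51 to 8.628 in the others. The difference of Mybbp1a between 4 h and prolonged dosing was larger in NK cells than in CD4+ T cells by the test of that difference itself (-0.92, limma adjusted p = 0.0316); it was below zero against each of the 4 other spleen cell types.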

How the results depend on the processing

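The mean difference of the NK genes between 4 h and prolonged dosing stayed between -0.60 and -0.45 over all settings, and the number called, 14, moved most. Numbers in brackets are all genes called lower, 108 of 10957 in the main fit. It was 22 (903) without the experiment term, 8 (91 of 19752) without the expression filter, 23 (661) with array weights, 5 (54) within J2 and 8 (69) with equal weight of each compound. It was 1 (13) with the red pulp covariate, 0 (4) without arrays above 7 for those markers, and 4 to 18 leaving out 1 array. Against vehicle, 0 (9) became 13 (259) with array weights, 7 (140) without the arrays that stood apart, 4 (63) without the 17 h arrays, and 0 to 4 leaving out 1 array. Polr1c turned to -0.54 without the experiment term, -0.25 with it as a random block, -0.039 with array weights, -0.051 within J2, and -0.067 to -0.002 leaving out 1 of 4 arrays; Ncl turned to 0.10 with the red pulp covariate. In CD4+ T cells the mean was 0.0527 against prolonged and 0.0528 against vehicle without the experiment term. There 2 genes (6 of all genes) were called against prolonged with array weights, and 2 (6) without the arrays that stood apart. In the arrays labelled spleen MF, against prolonged 6 (200) were called without the experiment term, 5 (32) with quantile normalization and 12 (295) with array weights. It was 1 (25) without the array that stood apart and 0 to 1 leaving out 1 array. Against vehicle it was 3 (258) without the experiment term and 3 (62) with array weights. In GN the mean was 0.024 and 0.0016 against prolonged without the experiment term and with it as a random block, and 0.026 and 0.0076 against vehicle; leaving out 1 array it ran from -0.165 to 0.0083 and from -0.107 to 0.0484, and for prolonged against vehicle from -0.082 to 0.038. Where no other value shows it, the cause was not tested. Without SB00526228 prolonged replicate 3, 1 gene, Mybbp1a, was called in place of 0 for the schedule difference of NK cells against the arrays labelled spleen MF, DC and GN. Of all 13130 genes, 34, 5 and 11 were called lower there. No paired analysis was possible because, within a cell type, each animal gave 1 array and replicate numbers only follow accession order; across cell types the animal was a block, and leaving it out changed no count of genes called by over 1.5 times.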
